A study of Ipomoea batatas with 28 samples.

Results

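The 200 IDs described here fell step by step, in stage means of log2(TPM + 1), as sweet potato roots thickened. They were chosen from the TPM table of roots of wild type Ipomoea batatas, in which 28 libraries cover 7 stages with 4 biological replicates each. The stages, with the root diameter in the labels, were the fibrous roots S4 (1.5 mm) and S8 (2 mm), the pencil roots S10 (3.5 mm) and S12 (5 mm), and the storage roots S14 (10 mm), S16 (15 mm) and S20 (25 mm), and RNA came from the middle section of each root. All roots shared the wild type genotype, and the labels give no treatment. Of 99697 IDs in the table, 75757 reached at least 1 TPM in at least 4 libraries. TPM is a share of a library per unit of transcript length. Stage means of log2(TPM + 1) were taken, with the mean of S4 and S8 as the fibrous level, which gives 5 steps: fibrous to S10, S10 to S12, S12 to S14, S14 to S16 and S16 to S20. All 5 steps were negative for 1359 IDs, and 708 of these had no step above 40% of the whole fall. The 200 with the largest fall from fibrous roots to S20 form the falling set, and its IDs are called members. All 200 passed the filter on low values, which is part of the rule.

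Storage roots of sweet potato form when thin fibrous roots thicken through cell division in the vascular cambium and in further meristems within the xylem parenchyma, whose cells fill with starch. Roots whose central cylinder turns woody early stay thin. Pencil roots are roots of intermediate thickness. Of the 200 members, 0 matched a gene name in the reference table, so no role can be given to any of them, no list of pathway genes or tissue markers could be read, and the labelled tissue was not checked against markers. At most 2 falling IDs are named, and other members are given by their rank in the size of the fall. The values show how much of the library each ID held. In whole root sections fewer cells of a type and less RNA per cell cannot be told apart.

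The members together were a visible part of the fibrous root transcriptome and a small part of the thickest storage root. In fibrous roots their TPM summed to 37458 ± 3835 (S4) and 39586 ± 2320 (S8). The pencil roots followed with 25070 ± 7588 (S10) and 14216 ± 4726 (S12). The storage roots held 6696 ± 1484 (S14), 4662 ± 1803 (S16) and lastly 1733 ± 78.4 (S20), each the mean ± SD of 4 libraries. As a share of the library this was 0.173% ± 0.00784 (SD, n = 4) at S20, against 3.85% ± 0.315 (SD, n = 8) in fibrous roots. These values chose the members, so they describe the set and support nothing. After median-of-ratios scaling the sum at S20 was 1498, and the sums at S4 and S8 were 47356 and 49697, so the range of the fall was wider on that scale.

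**Figure D1:**
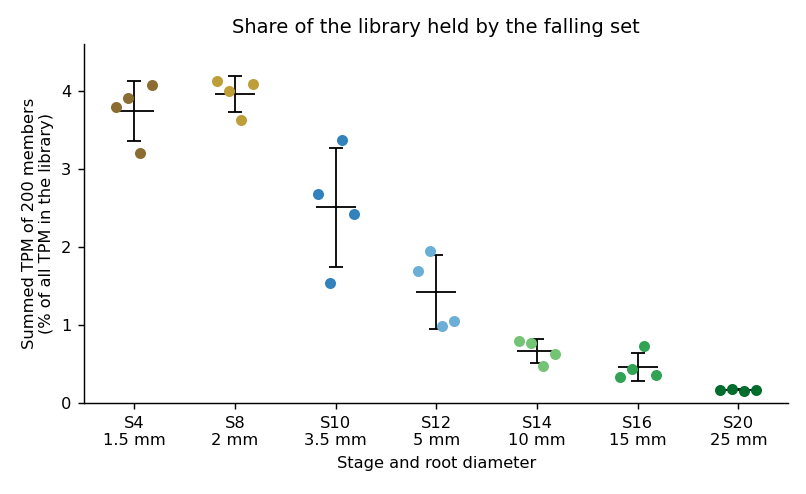
Summed TPM of the 200 members as a percentage of all TPM in a library (y axis) by stage and root diameter (x axis). Each point is 1 library, and bars show the mean and SD of 4 libraries. The 4 S20 libraries lie between 0.164% and 0.182%, while the 8 fibrous libraries lie between 3.20% and 4.13%, and the S10 and S12 libraries are widely spread.

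The sum of the members in single libraries showed which stages overlapped. At S10 it was 26838 TPM in replicate 1, 15399 in replicate 2, 33758 in replicate 3 and 24287 in replicate 5. Replicate 3 therefore lay above the lowest fibrous library, at 31980 TPM, and replicate 2 lay among the S12 libraries, which held 16915, 19483, 9870 and 10596 TPM. At S14 the libraries held 8011, 7714, 4782 and 6276 TPM, and at S16 they held 3381, 4418, 7281 and 3569 TPM. The highest S16 library lay above 2 of the S14 libraries. The S14 libraries were all below the S12 libraries, and the S20 libraries, at 1713, 1821, 1636 and 1762 TPM, were all below the S16 libraries.

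The number of members that could still be seen changed later than the sum. These values chose the members, and the lowest fibrous mean among them was 11.1 TPM. The order therefore follows from the rule and the thresholds and describes the set only. At 1 TPM or more, all 200 were present in each fibrous and S10 library, and 198 ± 3.30 were present in S12 roots (SD, n = 4). The storage roots showed 189 ± 7.59 (S14), 177 ± 11.6 (S16) and 124 ± 10.3 (S20) of them (SD, n = 4 each). At 10 TPM or more, 195 ± 2.67 were present in fibrous roots (SD, n = 8) and 177 ± 21.4 (S10) and 138 ± 21.7 (S12) in pencil roots. That number was 91.0 ± 19.3 (S14), 69.0 ± 21.8 (S16) and 34.0 ± 1.41 (S20) in storage roots (SD, n = 4 for each of these stages). Loss of detection was partial: 39 members were listed at 0 in at least 1 S20 library, and 1 member, rank 22, was listed at 0 in all 4. TPM carries no depth, so an ID listed at 0 may still have been present. A mean of at least 10 TPM remained at S20 for 33 members.

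Members were abundant in fibrous roots. Their fibrous means ran from 11.1 to 2796 TPM with a median of 61.6 TPM, against a median of 2.32 TPM over all IDs tested, and 71 members (35.5%) but 1.87% of all IDs tested had a fibrous mean of at least 100 TPM. An ID must start high to fall this far on the log2(TPM + 1) scale, so the rule favoured such IDs. The fall from fibrous roots to S20 had a median of -4.07 (log2), with quartiles of -4.81 and -3.61 and extremes of -8.44 and -3.27, while the median over all IDs tested was 0.43. In fold terms, on the TPM + 1 scale, members were between 9.62-fold and 347-fold lower at S20, with a median of 16.8-fold. Just inside the size limit of the set, the members at its last 2 ranks had log2 differences of -3.27 each. The next 2 IDs, just outside, had -3.24 each.

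The member with the largest fall was MSTRG.17654. It held 1048, 1230, 848 and 780 TPM in the S4 libraries and 1084, 813, 792 and 1020 TPM in the S8 libraries. In pencil roots it held 250, 101, 355 and 312 TPM at S10 and 71.8, 176, 10.3 and 54.7 TPM at S12. In storage roots it held 14.7, 26.8, 7.64 and 4.14 TPM at S14, 2.47, 5.61, 16.2 and 9.53 TPM at S16, and 4.69, 1.40, 0.43 and 1.75 TPM at S20. The fibrous libraries did not overlap any later library, and the pencil stages overlapped each other, as did S14, S16 and S20. Pencil and storage roots overlapped too: S12 replicate 4, at 10.3 TPM, lay below S14 replicates 2 and 3 and S16 replicate 3. Its steps in log2 were -2.02, -2.12, -2.18, -0.55 and -1.57 in turn, so the largest held 25.8% of the fall.

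The second, G34072_TU55871, kept more of its level at S10. It held 345, 323, 666 and 558 TPM at S4 and 195, 447, 465 and 483 TPM at S8. At S10 it held 290, 61.3, 465 and 321 TPM and at S12 109, 157, 48.2 and 78.4 TPM. Its S10 libraries lay mostly within the fibrous range. At S14 it held 17.3, 19.3, 4.01 and 3.64 TPM, at S16 6.01, 1.14, 14.3 and 11.7 TPM, and at S20 0.19, 1.16, 0.13 and 0.14 TPM. The step from S12 to S14, -3.24 in log2, held 39.2% of its fall, close to the limit of 40%. Both named IDs carry only a number in the table, and nothing else is known of them here.

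Ranks 3 to 10 had falls between -7.78 and -6.11 in log2. Among ranks 1 to 10, the step from S12 to S14 was the largest for all but ranks 7 and 10, whose largest step was S16 to S20. Ranks 7 and 10 were also the most abundant members, at 2796 ± 407 and 2758 ± 436 TPM in fibrous roots (SD, n = 8 each). Over the 5 stages from S10 to S20, rank 7 averaged 1849, 1156, 424, 167 and 23.7 TPM in turn, and rank 10 averaged 2222, 1352, 446, 190 and 39.0 TPM. The other 3 of the 5 most abundant members were less steep: ranks 150, 138 and 28 held 2303 ± 411, 2113 ± 343 and 1280 ± 637 TPM in fibrous roots (SD, n = 8 each). At S20 they held 186 ± 25.8, 162 ± 25.6 and 30.8 ± 14.9 TPM (SD, n = 4 each), listed in the same order. In mean TPM rank 28 did not fall at every step, with 52.2 ± 10.2 at S14 and 59.7 ± 40.2 at S16 (SD, n = 4 each). Some members outside these 5 also had a higher mean TPM at S16 than at S14. The 5 together held 29.2% of the members' TPM in fibrous roots.

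The fall was spread over all steps but was not even. The step from fibrous roots to S10 held a median of 15.3% of a member's fall in log2(TPM + 1), S10 to S12 21.4%, S12 to S14 25.2%, S14 to S16 10.0% and S16 to S20 26.8%. The largest step was S16 to S20 for 74 members, S12 to S14 for 54, S10 to S12 for 37, fibrous to S10 for 27 and S14 to S16 for 8. The smallest step was S14 to S16 for 100 members. The most even member by the SD of its 5 shares, rank 94, lost between 16.9% and 23.2% in each step. The least even by that measure, rank 76, lost 38.7% in the first step, 0.90% in the second, 20.4% in the third, 1.06% in the fourth and 39.0% in the last. These shares lie within the limit that the rule set.

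**Figure D2:**
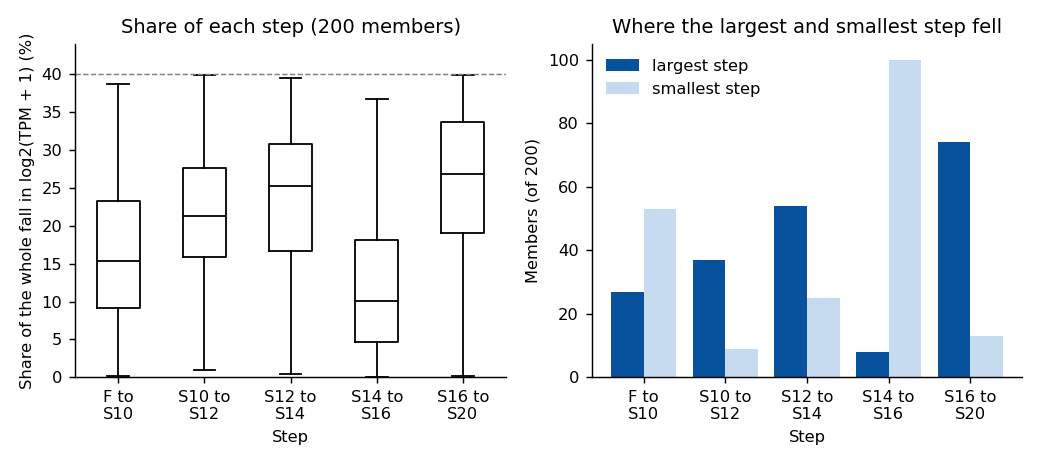
Left, share of each member's whole fall in log2(TPM + 1) taken by each step (y axis, %), with boxes from the first to the third quartile, the median as a line, whiskers to the lowest and highest of 200 members and the rule's limit of 40% as a dashed line. Right, the number of members (y axis) whose largest or smallest step was the one on the x axis: S16 to S20 was most often the largest (74 members) and S14 to S16 most often the smallest (100 members).

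In TPM rather than in log2 the early steps weighed more, since the summed TPM had already dropped to 14216 at S12. Set against root diameter, the steps are unequal in length. Per doubling of diameter the median change in the 5 steps was -0.63, -1.72, -1.02, -0.72 and -1.52 in turn. For this purpose the fibrous roots were placed at 1.73 mm, between their stages. On this scale the steepest step was S10 to S12 for 100 members and S16 to S20 for 74. The diameter at the midpoint of a member's fall in log2(TPM + 1), read by interpolation, had a median of 6.93 mm, with quartiles of 5.64 and 9.35 mm. It lay between S10 and S12 for 39 members, between S12 and S14 for 120 and between S14 and S16 for 41.

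**Figure D3:**
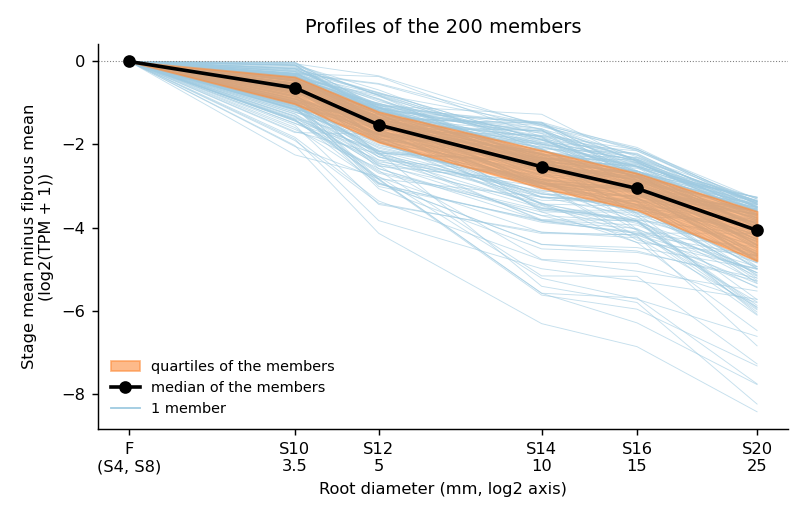
Stage mean of log2(TPM + 1) minus the fibrous mean (y axis) against root diameter on a log2 axis (x axis). Each thin line is 1 of the 200 members, the band spans the quartiles and the thick line is the median, which reaches about -4.07 at S20 while the lowest member reaches -8.44.

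Single steps often did not reach the threshold for a call. At a limma adjusted p under 0.05 with a log2 fold of at least 1 in size, all 200 members were lower at S20 than in fibrous roots, where 12.3% of all IDs tested were. Of the single steps, 31 members were called lower at S10 against fibrous roots (2.16% of all IDs tested), 6 at S12 against S10 (0.0871%), 51 at S14 against S12 (1.75%), 0 at S16 against S14 (0.0884%) and 74 at S20 against S16 (2.76%). The rule used these contrasts, so nothing is read from the counts against their backgrounds. At an unadjusted limma p under 0.05, 88 members were lower at S10 than in fibrous roots (5931 of all 75757 IDs tested). Against the stage before, 119 were lower at S12 (2640 of all IDs) and 119 at S14 (5360). For S16 and S20 these numbers were 35 (5.64% of all IDs tested) and 124 (9116 of all IDs). Nothing is read from these counts either. No step was called for 86 members, 1 step for 73, 2 steps for 34 and 3 steps for 7, and 0 members had more. The counts depended on the settings and on single libraries. Median-of-ratios scaling gave 69 members lower at S10 and a pseudocount of 0.1 gave 19, and the other steps moved as well under some settings. Without S10 replicate 2 or 5 the S10 count was 14 or 17. The S12 count was 36 without S10 replicate 2, 16 without S12 replicate 2, 1 without S12 replicate 5 and 0 without S10 replicate 1, 3 or 5 or S12 replicate 4. The S14 count was 32 or 24 without S12 replicate 1 or 2, the S16 count was 10 without S14 replicate 4 and 2 without S16 replicate 3, and the S20 count was 44 without S16 replicate 3.

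Libraries were also counted without a model. The rule used these same libraries, so nothing is read from the counts against their shares of all IDs. The S20 libraries were all below the 8 fibrous libraries for all 200 members (10.5% of all IDs tested). All libraries of a stage lay below those of the point before it for 31 members at S10 (1.81% of all IDs tested), 24 members at S12 (1.94%), 49 members at S14 (4.63%), 4 members at S16 (2.02%) and 92 members at S20 (7.63%). For 71 members every neighbouring pair overlapped, and 0 members were separated in all 5.

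The rule itself was also read in libraries that had no part in the choice. A set of 200 was chosen again from 3 libraries per stage, and the 7 libraries left out were then read, in 4 rounds. Of the 200 IDs chosen in each round, 118, 97, 112 and 135 were members, so the counts describe sets that overlap the members only in part. The fall was at least 1 in log2 for 198, 199, 199 and 200 of the 200 IDs chosen, while 16.7%, 16.3%, 14.1% and 14.9% of all IDs passing the filter fell that far in the same libraries. The chosen IDs and all IDs are not matched for level. On this scale an ID under 1 TPM in fibrous roots cannot fall by 1. The lower quartile of the fibrous means of all IDs tested was 0.81 TPM. The median fall of the chosen IDs was -3.86, -3.69, -4.36 and -3.97. All 5 steps were negative in the libraries left out for 51, 37, 14 and 76 of the chosen IDs, against 1.28%, 0.740%, 0.267% and 1.19% of all IDs. The weakest step differed between rounds. In the second round 82 of 200 IDs were lower at S12 than at S10, where 45.1% of all IDs were. In the third round 31 of 200 were lower at S16 than at S14, where 49.6% of all IDs were. In these steps the chosen IDs were lower less often than all IDs. With 1 library per stage in each round, these are counts without a test, and the rounds share libraries.

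The thinnest roots offered a comparison that the rule did not use, since it took only the mean of S4 and S8. The members' median difference, S8 minus S4, was 0.15 in log2 with quartiles of -0.06 and 0.40, and 133 of 200 were higher at S8, where 54.1% of all IDs tested were and the median of all IDs was 0.03. No single member differed past the threshold. limma called 0 members lower (0% of all IDs tested) and 0 higher (0.00132%), and at an unadjusted p under 0.05 there were 2 lower (1.96% of all IDs tested) and 0 higher (2.04%). Those were rank 41, with 24.6 ± 7.92 TPM at S8 and 60.3 ± 34.0 TPM at S4, and rank 72, with 16.2 ± 3.64 TPM at S8 and 37.1 ± 22.7 TPM at S4 (SD, n = 4 each; limma adjusted p = 1 for each). Over the alternatives run, the median ran from 0.08 to 0.20, with 0.08 without S4 replicate 4, and the number of members higher at S8 ran from 114 to 148. Because the members share these 8 libraries, the count of 133 is not a count of independent events.

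The stepwise falling set was read in the same way. It holds the 200 IDs with the largest falls among the 651 whose 5 steps were all negative but of which 1 step exceeded 40%. Its median of S8 minus S4 was 0.01, and 103 of its 200 IDs were higher at S8. A rising set, chosen by the mirrored rule (5 positive steps, 200 IDs of 2881 that met it), had a median of 0.14. In it, 136 of 200 IDs were higher at S8, so a shift of this size was not particular to the falling set. The differences between the sets were not tested.

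**Figure D4:**
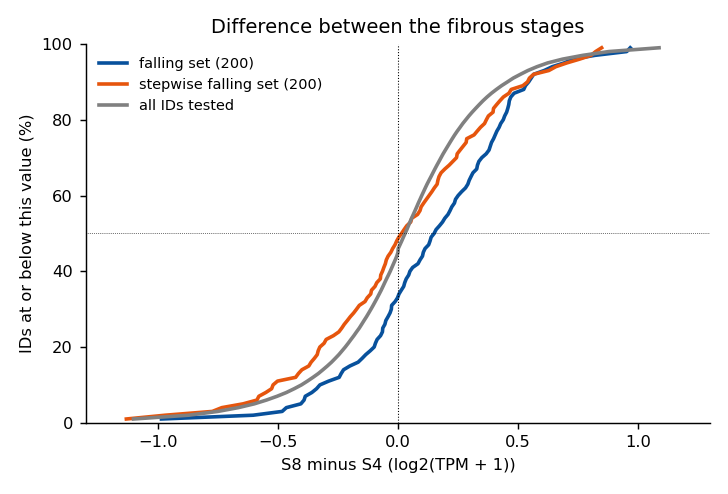
Cumulative share of IDs (y axis, %) by their difference S8 minus S4 in log2(TPM + 1) (x axis) for the falling set, the stepwise falling set and all IDs tested. The falling set lies to the right of the other curves over most of the range and has its median at 0.15, against 0.01 for the stepwise falling set and 0.03 for all IDs tested. The rising set, with a median of 0.14, is not drawn.

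Within a stage, members moved up and down together. The median deviation of the members from their stage means was -0.80 in S10 replicate 2 and 0.55 in S10 replicate 3, and 176 and 11 of the 200 members lay below their S10 mean in these libraries. At S12 it was -0.71 in replicate 4 and 0.53 in replicate 2, at S14 it was -0.43 in replicate 4 and 0.33 in replicate 3, and at S16 it was -0.41 in replicate 1 and 0.65 in replicate 3. The medians of all IDs tested lay between -0.07 and 0.04 in those libraries. The range over the 4 libraries was 1.35 at S10, 1.23 at S12, 0.76 at S14 and 1.06 at S16, but 0.38 at S4, 0.13 at S8 and 0.16 at S20. The median SD between libraries was 0.61, 0.67, 0.58 and 0.70 at S10, S12, S14 and S16 for members, and 0.33, 0.38, 0.36 and 0.38 for all IDs tested. At S4, S8 and S20 the members' SDs were 0.51, 0.32 and 0.37, against 0.47, 0.37 and 0.36 for all IDs. The members' median at S20 was 1.69 TPM, a level at which log2(TPM + 1) makes deviations appear small. Over all libraries, all IDs tested had a median level of 3.29 TPM against 29.0 TPM for members, so the scale lowers their SDs as well.

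**Figure D5:**
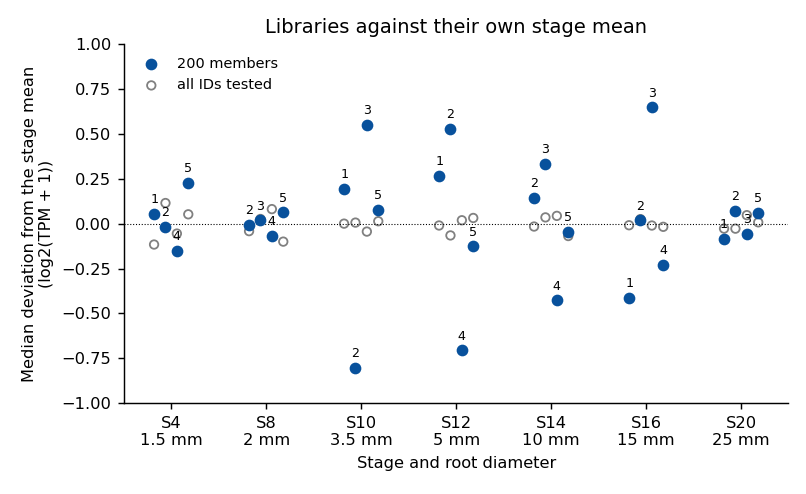
Median deviation from the stage mean in log2(TPM + 1) (y axis) for the 200 members (filled points, with the replicate number) and all IDs tested (open points) in each library, by stage and diameter (x axis). The members' medians spread from -0.80 to 0.55 at S10 and from -0.41 to 0.65 at S16, and stay within 0.09 of the stage mean at S8 and S20. At S20 the members are low (median 1.69 TPM), where this scale makes deviations appear small.

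The mean pairwise correlation of these deviations over the 28 libraries was 0.339 among members. It was 0.160 in the stepwise falling set, 0.141 in the rising set and 0.0251 among all IDs tested. These groups are not matched for level. The median level over all libraries was 29.0 TPM for members and 3.29 TPM for all IDs tested, with the stepwise falling and rising sets between. The part of level in these correlations was not tested. The IDs share their libraries and the 7 stage means, so these correlations are descriptions. In 21 of 28 libraries the median deviation of the members had the opposite sign to that of the rising set. The root diameter of single libraries within a stage is not in the labels, and its part in these deviations was not tested.

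The table gives IDs of 2 kinds. Members were of the kind with a G and TU number in 174 cases and of the kind MSTRG in 26 (13.0%), against 24.6% MSTRG among all IDs tested. The 174 members had 167 distinct G numbers, and 7 of these held 2 members each. A G number can have several IDs, between which reads may be divided, and in a hexaploid plant near-identical copies make that division uncertain.

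The other IDs of the members' G numbers were mostly lower at S20 too. There were 103, of which 91 were tested. limma called 72 of these lower at S20 than in fibrous roots (12.3% of all IDs tested were), 1 higher (27.6%) and 18 neither, with a median log2 difference of -2.39. All 5 steps were negative for 19 of the 91, where they were for 1359 of the 75757 IDs tested. The 1 called higher averaged 2.58 TPM at S20 and 0.07 TPM in fibrous roots, and another ID of its G number was called lower. These IDs share reads and libraries with the members and are not independent of them.

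Summed over all IDs of a G number, TPM was called lower at S20 for 167 of 167 G numbers of the members (limma), with a median log2 difference of -4.06. Of all 61401 entries tested, 12.9% were called lower, and these entries include IDs without a G number, kept as they are. For the 73 G numbers with more than 1 ID the median was -4.12, and the members held a median of 73.0% of the sum at S20 and 76.3% in fibrous roots. The sums contain the members, so they are not independent of them. Some sums fell much less than the members: the smallest log2 difference of a sum was -1.03, while those of the members were -3.27 or lower. In that G number the members held 46.6% of the sum in fibrous roots and 2.48% at S20. The members' share was lower at S20 than in fibrous roots for 42 of the 73. One of these is the G number of ranks 7 and 10, given here because it holds the most abundant members. It had 8 IDs, whose sum was 643 ± 197 TPM at S20 (SD, n = 4), against 7412 ± 865 TPM in fibrous roots (SD, n = 8). Ranks 7 and 10 held 9.74% of it at S20 and 74.9% in fibrous roots. Of its other 6 IDs, 5 were called lower, with log2 differences between -2.53 and -1.24 (limma), and 1 was not called (-0.51, limma adjusted p = 0.372).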

How the data were processed

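The authors deposited 1 table of TPM values with a column per library. The submitters' processing notes name RSEM 1.3.1 and TopHat2 2.0.0. What each did, and which genome and gene models were used, is not given in the sources used here. Each column summed to between 999998 and 1000003. TPM keeps no depth, so no counting error was computed and precision rests on the spread between libraries.

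The analysis took every ID that reached 1 TPM in 4 or more libraries, on the log2(TPM + 1) scale, on which changes of low IDs appear too small. Stage differences came from limma 3.58.1 (R 4.3.3), with 1 coefficient per stage for the 28 libraries and a prior variance that follows the mean level. p-values were adjusted by Benjamini-Hochberg over all 75757 IDs, and an ID was called at an adjusted p under 0.05 with a log2 fold of at least 1 in size. Other steps used Python 3.11.15, NumPy 2.4.6, pandas 2.3.3 and Matplotlib 3.10.9. The code was also run on simulated data with independent noise for each ID and evenly seeded falls smaller than those of the members. The members' deviations were correlated, so these runs give no error rate for this set. Deviations are log2(TPM + 1) minus the stage mean.

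The members, sets and tests were chosen with earlier results of these data known. The IDs named are the 2 members with the largest fall among those with a fibrous mean of at least 10 TPM. Of the other IDs of the members' G numbers, 0 met the rule for naming a rising one. Alternatives were other pseudocounts, scalings, filters, step limits and set sizes, the replicate number as a block, fits to the compared stages alone and the removal of each library. The deviations within stages, the diameter at the midpoint of the fall and the neighbours in the G numbering were added after the data were seen.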

Additional observations from a re-analysis of the deposited data

Results flagged for a closer look

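In 28 groups of 4 libraries (the members' sum, their median and the 2 named IDs at each stage), 2 had a library far from the other 3, and chance flags about 1 in 20 such groups. Both concern G34072_TU55871. At S8, replicate 2 held 195 TPM while the others held 447 to 483 TPM. At S20, replicate 2 held 1.16 TPM while the others held 0.13 to 0.19 TPM.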

How the results depend on the processing

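All 200 members were called lower at S20 than in fibrous roots under every alternative run. They were chosen for this fall in these libraries, so that count supports nothing. Of all 75757 IDs tested, 9344 were called lower in the main fit (limma). That number was 12925 with median-of-ratios scaling, 12672 with quantile normalization and 5021 with a pseudocount of 5. Which IDs make up the set depended on the choices. With the set chosen again, 103 of the 200 were kept with a pseudocount of 0.1, 133 with median-of-ratios scaling, 118 with a step limit of 35%, 100 by construction in a set of 100, and between 137 and 200 under the other settings. When 1 library was left out, 136 to 195 were kept. The median of S20 minus fibrous roots over all IDs was 0.43 as deposited, against -4.07 over members. Median-of-ratios scaling gave 0.10 and -4.52, and quantile normalization 0.11 and -4.20. The call counts of single steps moved most, and the cause was not tested. The count at S10 was 19 with a pseudocount of 0.1 and 69 with median-of-ratios scaling. At S12 it was 1 with a pseudocount of 0.1, 2 with quantile normalization, 10 with a filter of 5 TPM, 3 with no filter and 0 in a fit to the compared stages alone. That fit gave 21 at S14 and 33 at S20, and a pseudocount of 5 gave 28 at S20. With 1 library left out, the counts ran from 14 to 41 at S10, 0 to 36 at S12, 24 to 76 at S14, 0 to 10 at S16 and 44 to 79 at S20. Scaled by median of ratios, the members summed to 47356 (S4), 49697 (S8) and 1498 (S20). Of the other IDs of the members' G numbers, 0 were called higher with a pseudocount of 5 and with a filter of 5 TPM.

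A replicate block changed the count at S10 to 49 and at S12 to 0, and lowered the median of S8 minus S4 to 0.08, with 114 of 200 members higher at S8. The numbers were not shown to pair the libraries: deviations of same-numbered libraries correlated with a median of -0.00471, and 8 of 66 pairs were over 0.1. For pairs of other numbers the median was -0.00262, and 34 of 270 pairs were over 0.1. Of 28 libraries, 6 correlated best with their own number, and the share by chance was not computed.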

Other observations

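The rising set, chosen by the mirrored rule, had a median of S8 minus S4 of 0.14 in log2, and 136 of its 200 IDs had a positive difference. At an unadjusted limma p under 0.05, 22 were higher and 1 lower, with 0 called after adjustment. The difference from the falling set was not tested.

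Neighbours in the G numbering were read without knowing whether the numbers follow the genome. Of 164 G numbers of members with a tested neighbour, 41 (25.0%) had an ID called lower at the next number on either side, against 22.3% of all G numbers tested and 26.7% of the other G numbers with an ID called lower. There were 6 G numbers of members that stood next to another.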
